A study of Homo sapiens with 16 samples.

Results

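The mRNA of 8 regulators of proteasome and antioxidant genes was followed across the array experiment, namely of NFE2L1, NFE2L2, KEAP1, DDI2, BACH1 and the small MAF genes MAFF, MAFG and MAFK. They were chosen by name, and their probes were found through the RefSeq accession of each probe. All 8 genes of the 20503 symbols matched on the array were found, with 10 of the 50599 gene probes between them (2 each for MAFG and BACH1 and 1 for each of the others). RNA came from LP-1, a human multiple myeloma cell line with deleted or mutated TRAF3, which lacks the MATH domain according to the paper. The cells had been transduced with a lentiviral pIRES2 vector and sorted for eGFP. LP-1-cIAP2-eGFP cells overexpressed cIAP2, an inhibitor of apoptosis protein, and LP-1-eGFP cells carried the vector with eGFP alone and are called control cells here. Cells of each line received no drug or 10 nM bortezomib, an inhibitor of the proteasome, for 6 h or 24 h, so that 8 conditions with 2 biological replicates each gave 16 one-colour Agilent arrays. The number of arrays limits the precision. All cells carried the altered TRAF3 and the vector, and no other myeloma line is in the data.

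NFE2L1 and NFE2L2 encode CNC-bZIP transcription factors, which bind antioxidant response elements as dimers with a small MAF protein. NFE2L1 is anchored in the endoplasmic reticulum and normally degraded by the proteasome. When proteasome activity drops, the protease DDI2 cleaves it, and the released factor is known to induce proteasome subunit genes. NFE2L2 is held in the cytosol and handed to a ubiquitin ligase by KEAP1, and it is known for inducing antioxidant genes. BACH1 is a repressor that competes for the same elements, and the small MAF proteins lack an activation domain, so that as homodimers they can repress. These steps act largely on protein, whereas the arrays measured mRNA.

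Values are the log2 of the quantile normalized signal, 1 unit being a 2-fold difference, and the levels of different probes were not set against each other. In a bulk sample a lower share of living cells and less of an mRNA per cell cannot be told apart. Probes were tested where some condition had both of its arrays well above background, as the scanner software flags it, and 33731 probes were. A gene was called at an adjusted p under 0.05 by limma, with Benjamini-Hochberg adjustment over all tested probes. The array of LP-1-cIAP2-eGFP cells with bortezomib for 24 h, replicate 1, stood apart from the others. Its median signal before normalization was 3.18 on the log2 scale and 35.5% of its spots lay well above background, compared to 5.73 to 6.64 and 49.0% to 71.1% on the other 15 arrays. Over all probes its difference from replicate 2 had an SD of 1.48, while replicate differences in the other conditions had SDs of 0.495 to 0.773. The values that rest most on this array are therefore given without it too. The arrays lay on 2 slides, which held 6 and 2 of the arrays of the cIAP2 line, so that slide and line partly coincided.

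The cells carried the plasma cell markers of their label. Of 8 plasma cell genes, 7 lay above background on all 16 arrays and PRDM1 on 15. The B cell genes MS4A1 and PAX5 lay above background on no array, and CR2 did on 12. Of the markers of other cell types, CD2 lay above background on 15 arrays, CD14 on 13, CD3D on 12, CD3E, ITGAM and COL1A1 on 10, KRT19 on 9, HBB on 5 and EPCAM on 2, while CSF1R, CDH1, COL1A2 and PDGFRB did on none. The part of these markers in the results was not tested. The treatment was visible in 5 heat shock genes that accompany proteasome inhibition, all of which rose in both lines at both times (4 of the 5 in LP-1-cIAP2-eGFP cells at 6 h with arrays scaled to their 75th percentile). BAG3, a co-chaperone, rose by 5.48 and 4.46 on the log2 scale at 6 h in LP-1-eGFP and LP-1-cIAP2-eGFP cells, and by 4.67 and 4.60 at 24 h. The corresponding increases of DNAJB1, a partner of HSP70, were 3.98, 3.18, 4.50 and 4.79, and those of HSPH1, an HSP70 exchange factor, were 2.46, 2.00, 2.07 and 2.26. HSPA1B, an inducible HSP70, rose by 4.12, 3.42, 5.61 and 4.87. Its near-identical copy HSPA1A was not well above background in any untreated cells, and was at least 3.93-fold and 3.19-fold higher at 6 h and at least 1.28-fold and 4.32-fold higher at 24 h (above background on 1 of the 2 treated arrays of each line at 24 h). These bounds were computed against the lowest signal well above background on each untreated array.

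Bortezomib raised the mRNA of MAFF, MAFG, NFE2L1 and BACH1, and no change was called for KEAP1, MAFK or DDI2. Of the 8 genes 7 could be tested, since NFE2L2 did not reach the signal threshold. In LP-1-eGFP cells at 6 h 3 of the 7 rose (MAFF, NFE2L1 and BACH1) and 0 fell, where 1.26% of all tested probes rose and 0.691% fell. In LP-1-cIAP2-eGFP cells at 6 h 3 rose (MAFF, MAFG and BACH1) and 0 fell, beside 0.762% and 0.323% of all probes. At 24 h the same 4 genes rose in both lines and 0 fell, beside 9.81% of probes higher and 11.2% lower in LP-1-eGFP cells, and 11.1% and 17.5% in LP-1-cIAP2-eGFP cells. At an unadjusted p under 0.05 the counts of lower genes were 0, 0, 1 and 0 in the same order, the one being MAFK in LP-1-eGFP cells at 24 h. The median log2 response of the 7 genes was 0.76 and 0.91 at 6 h and 1.20 and 1.32 at 24 h in the 2 lines, compared to -0.03, -0.00014, -0.03 and -0.16 over all tested probes. When arrays were scaled to their 75th percentile instead, the median over all probes in LP-1-cIAP2-eGFP cells at 24 h was 0.21 in place of -0.16, and the same 4 genes were called in each line at 24 h. Of the probes called in LP-1-cIAP2-eGFP cells at 6 h, 70.2% were higher in the main scaling, 81.7% in the other, 53.4% without the array of low signal and 52.8% with array weights. In LP-1-eGFP cells at 6 h the share was 64.6% in the main scaling, 48.9% without that array and 43.5% with array weights. The plot of responses shows the 7 genes side by side.

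**Figure D1:**
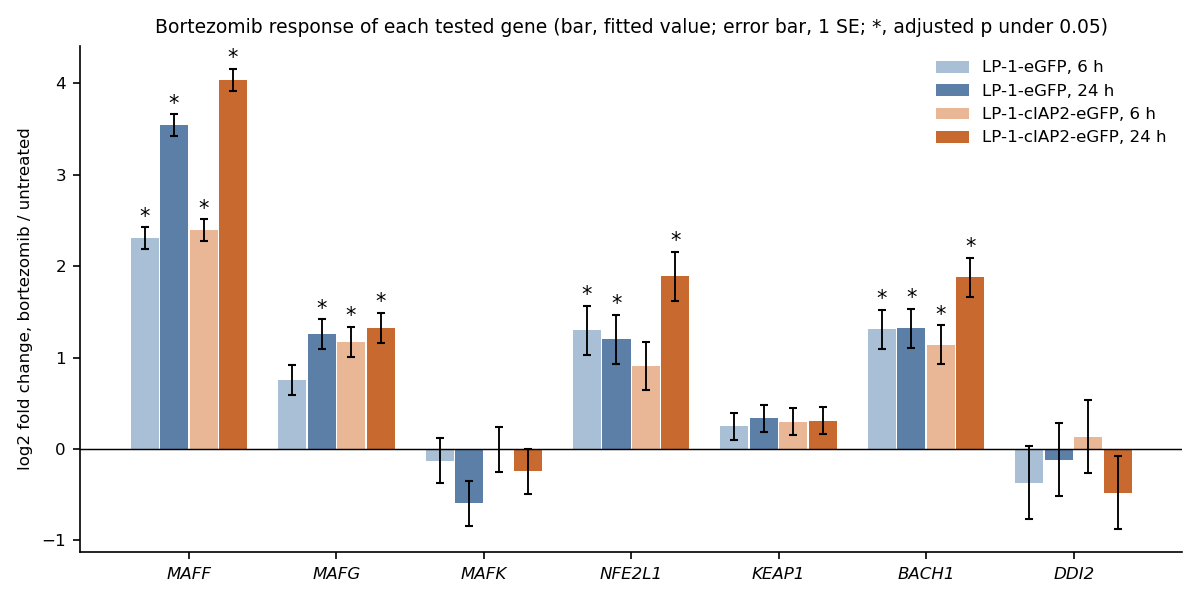
Bars give the fitted log2 fold change of bortezomib over untreated cells for the 7 tested genes in each line and time, error bars 1 SE, and stars an adjusted p under 0.05 by limma. The bars of MAFF range from 2.31 to 4.04 and those of KEAP1 from 0.25 to 0.34.

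The calls at 6 h were less secure than those at 24 h. Leaving out any 1 of the 4 arrays of the 2 conditions compared left MAFF as the only gene called at 6 h in that line. At 24 h the 4 genes remained called in LP-1-cIAP2-eGFP cells without any 1 of the 16 arrays, including the array of low signal.

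MAFF, a small MAF gene induced by various stresses, had the largest response of the 7 genes. Untreated LP-1-eGFP cells measured 6.85 and 6.96 at 6 h and 7.36 and 7.28 at 24 h, and treated cells 9.20 and 9.22 at 6 h and 10.89 and 10.84 at 24 h. Untreated LP-1-cIAP2-eGFP cells measured 6.66 and 6.66 at 6 h and 6.84 and 6.95 at 24 h, and treated cells 9.10 and 9.0 at 6 h and 10.89 and 10.99 at 24 h. Every treated array thus lay above every untreated array, and every 24 h treated array above every 6 h one. The increase at 6 h was 4.94-fold in LP-1-eGFP cells (log2 2.31 ± 0.12, SE, adjusted p = 3.84e-05) and 5.25-fold in LP-1-cIAP2-eGFP cells (2.39 ± 0.12, adjusted p = 3.36e-05). At 24 h it was 11.7-fold (3.54 ± 0.12, adjusted p = 7.99e-07) and 16.5-fold (4.04 ± 0.12, adjusted p = 4.16e-07). Without the array of low signal the 24 h value in LP-1-cIAP2-eGFP cells was 4.09. Comparing arrays within a slide gave 2.36 and 3.52 for LP-1-eGFP cells and 2.39 and 4.09 for LP-1-cIAP2-eGFP cells. Here and for the genes below, each such treatment comparison used 2 arrays on one side and 1 on the other. All of those in LP-1-eGFP cells came from slide 2 and all of those in LP-1-cIAP2-eGFP cells from slide 1, so that line and slide coincided in them.

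The promoter window of MAFF is shown because this gene rose most and because the window holds the core of the antioxidant response element, the site bound by NFE2L1, NFE2L2, BACH1 and their small MAF partners. The search was for TGACNNNGC on both strands, in windows from 250 bases before to 50 bases after each RefSeq start (build GRCh38.p14). Of 35116 windows of all genes 13.3% held a match. The 13 windows of 7 of the genes were searched, and MAFK is not among them. The window lies at chr22:38201744-38202043 on the plus strand, and the match, on the opposite strand with its leftmost base at position -122, is in capitals.
MAFF: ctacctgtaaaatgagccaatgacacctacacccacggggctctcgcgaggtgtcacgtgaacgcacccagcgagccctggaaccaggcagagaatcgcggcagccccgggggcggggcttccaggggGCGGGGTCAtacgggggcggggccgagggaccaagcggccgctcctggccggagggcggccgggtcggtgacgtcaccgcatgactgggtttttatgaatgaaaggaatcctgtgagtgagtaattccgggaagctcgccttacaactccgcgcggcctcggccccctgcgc
The other MAFF window held no match, nor did any window of NFE2L1, NFE2L2, MAFG, BACH1 or DDI2. A match is a description of the letters and not evidence of a bound site.

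MAFG, a widely expressed small MAF gene, also rose. Its brighter probe measured 11.70 and 11.71 in untreated LP-1-eGFP cells at 6 h and 11.89 and 11.56 at 24 h, compared to 12.42 and 12.51 and then 13.09 and 12.87 with bortezomib. In LP-1-cIAP2-eGFP cells the untreated values were 11.14 and 11.09 at 6 h and 11.55 and 11.24 at 24 h, and the treated ones 12.22 and 12.35 and then 12.78 and 12.66. Within each line all treated arrays lay above all untreated arrays. At 24 h MAFG rose 2.38-fold in LP-1-eGFP cells (log2 1.25 ± 0.16, SE, adjusted p = 0.000561) and 2.50-fold in LP-1-cIAP2-eGFP cells (1.32 ± 0.16, adjusted p = 0.000311). At 6 h it rose 2.26-fold in LP-1-cIAP2-eGFP cells (1.17 ± 0.16, adjusted p = 0.0126), and the value in LP-1-eGFP cells was 0.76 ± 0.16 (adjusted p = 0.0518), just outside the threshold. The latter was called by limma with 75th percentile scaling (0.84, adjusted p = 0.0399), normexp background correction (0.79, adjusted p = 0.0280) and array weights (0.76, adjusted p = 0.000872). Over the alternatives that kept all arrays its adjusted p reached 0.160. The 24 h value in LP-1-cIAP2-eGFP cells was 1.27 without the array of low signal. The same omission, although that array is in neither of the 6 h LP-1-eGFP conditions and enters the shared estimate of the spread alone, took the 6 h value in LP-1-eGFP cells past the threshold (adjusted p = 0.0233). The dimmer probe of MAFG gave 0.63, 1.19, 1.36 and 0.85 in LP-1-eGFP at 6 h, LP-1-cIAP2-eGFP at 6 h, LP-1-eGFP at 24 h and LP-1-cIAP2-eGFP at 24 h, and was called at 24 h in both lines and at 6 h in neither. Within slides the brighter probe gave 0.76 and 1.15 for LP-1-eGFP cells and 1.15 and 1.17 for LP-1-cIAP2-eGFP cells at 6 h and 24 h.

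MAFK, the remaining small MAF gene, did not share this response. Its values ran from 9.46 to 10.71 over the 16 arrays with a median of 10.24, and treated and untreated arrays overlapped in 3 of the 4 comparisons. The differences were -0.13 and -0.01 at 6 h and -0.59 and -0.24 at 24 h (SE 0.25), with adjusted p from 0.132 to 1. In LP-1-eGFP cells at 24 h, where both treated arrays (9.46 and 10.07) lay below both untreated ones (10.19 and 10.53), the 95% interval of the difference ran from -1.15 to -0.04. With a replicate block in the limma fit this difference was called lower (-0.59, adjusted p = 0.0400). Without the array of low signal the difference in LP-1-cIAP2-eGFP cells at 24 h was 0.02.

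**Figure D2:**
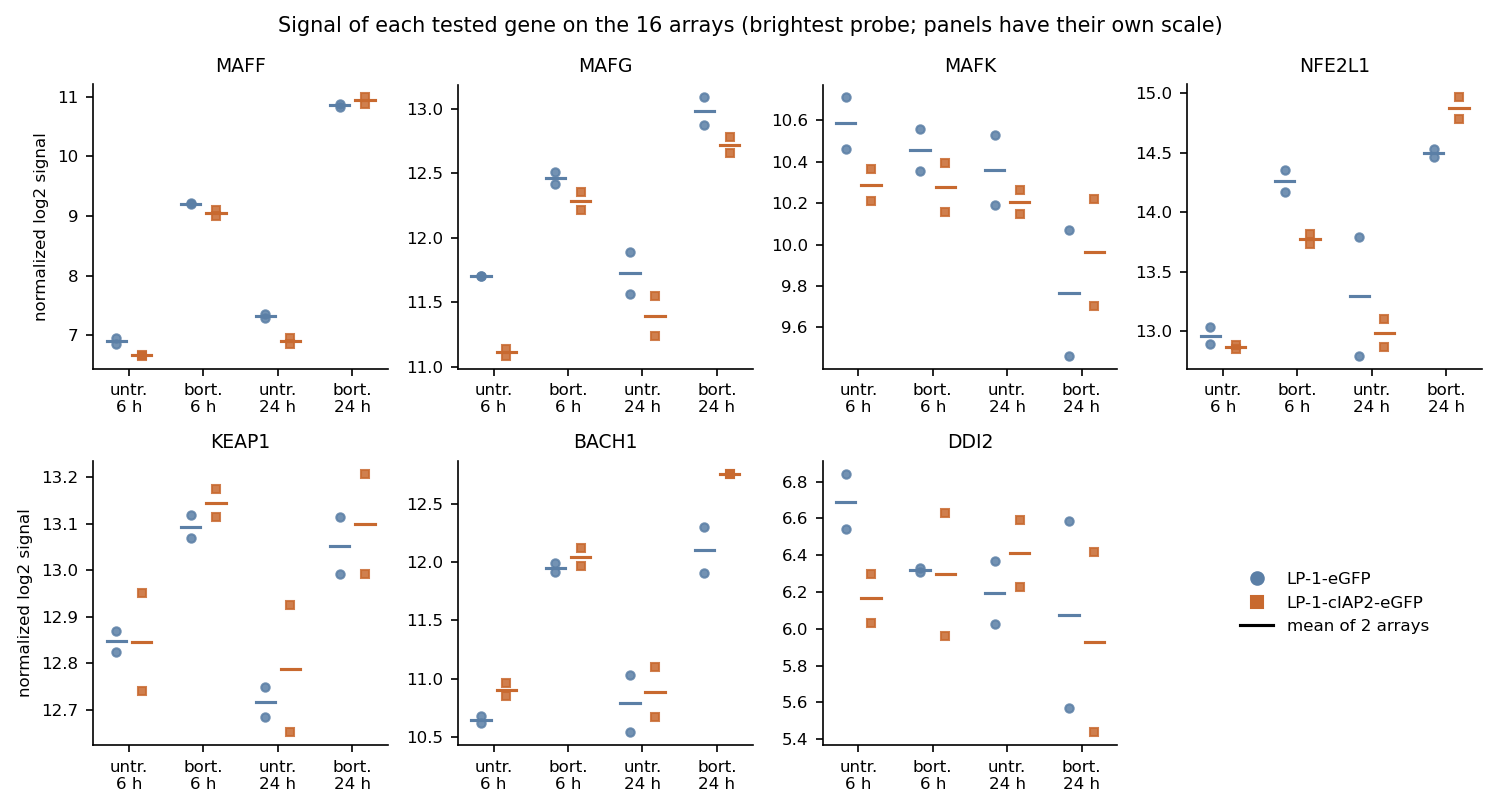
Each panel plots the normalized log2 signal of 1 gene (brightest probe) in the 4 treatment and time conditions, with circles for LP-1-eGFP, squares for LP-1-cIAP2-eGFP and lines for the mean of 2 arrays. The vertical scales differ between panels, from a span of about 4 units for MAFF (6.66 to 10.99) to under 1 for KEAP1 (12.65 to 13.21).

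NFE2L1, the factor that induces proteasome genes, rose with bortezomib at 24 h in both lines. Treated LP-1-eGFP cells measured 14.35 and 14.17 at 6 h and 14.46 and 14.53 at 24 h, compared to 13.03 and 12.89 and then 13.79 and 12.79 untreated. Treated LP-1-cIAP2-eGFP cells measured 13.74 and 13.82 at 6 h and 14.96 and 14.78 at 24 h, compared to 12.89 and 12.85 and then 13.10 and 12.87 untreated. Treated arrays lay above the untreated arrays of their own line and time throughout, but the untreated LP-1-eGFP replicates at 24 h lay apart, replicate 1 being the higher. The increase was 2.46-fold at 6 h (log2 1.30 ± 0.27, SE, adjusted p = 0.0421) and 2.30-fold at 24 h (1.20 ± 0.27, adjusted p = 0.0100) in LP-1-eGFP cells, and 3.70-fold at 24 h in LP-1-cIAP2-eGFP cells (1.89 ± 0.27, adjusted p = 0.000666). In LP-1-cIAP2-eGFP cells at 6 h the difference was 0.91 ± 0.27 (adjusted p = 0.188), and it was called without either untreated LP-1-eGFP array of 24 h (adjusted p = 0.0273), which enter the spread alone.

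Single arrays decided the size of the NFE2L1 response in LP-1-eGFP cells at 24 h. It was 1.70 without untreated replicate 1 and 0.70 without untreated replicate 2, and without treated replicate 2 it was 1.17 and lost its call (adjusted p = 0.0525). The 6 h call of NFE2L1 in LP-1-eGFP cells was lost without any 1 of 12 arrays (adjusted p 0.0687 to 0.300), although its value stayed between 1.21 and 1.39. It was also lost with slide as a block (1.31, adjusted p = 0.103), with normexp background correction (1.35, adjusted p = 0.0994) and without a filter on dim probes (1.30, adjusted p = 0.103), and both treated arrays lay on slide 2. In LP-1-cIAP2-eGFP cells the 24 h value was 1.80 without the array of low signal (adjusted p = 0.00387) and 1.26 with normexp background correction. Within slides the responses at 6 h and 24 h were 1.23 and 1.24 in LP-1-eGFP cells and 0.89 and 1.77 in LP-1-cIAP2-eGFP cells.

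NFE2L2 was not measured well. Its only probe lay well above background on 1 of the 16 arrays, untreated LP-1-eGFP cells at 6 h, replicate 1, and both arrays of no condition reached that signal. It was therefore not tested, and no level or fold is given. DDI2, the protease that activates NFE2L1, was dim too, with values from 5.44 to 6.84 and a signal above background on 13 arrays. The 3 arrays below it were all of treated cells, 2 of them in LP-1-cIAP2-eGFP cells (replicate 1 at 6 h and at 24 h) and 1 in LP-1-eGFP cells (replicate 1 at 24 h). Its differences of -0.37, 0.13, -0.12 and -0.48 (LP-1-eGFP and LP-1-cIAP2-eGFP at 6 h, then at 24 h) were not called, with an SE of 0.40 and intervals that reached from -1.38 to 1.03. Without the array of low signal the last of these was 0.01.

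KEAP1, the adaptor that directs NFE2L2 to degradation, was bright on all arrays and varied little. In untreated cells it measured 12.87 and 12.83 (LP-1-eGFP, 6 h), 12.68 and 12.75 (LP-1-eGFP, 24 h), 12.95 and 12.74 (LP-1-cIAP2-eGFP, 6 h) and 12.92 and 12.65 (LP-1-cIAP2-eGFP, 24 h). With bortezomib the same order gave 13.12 and 13.07, 13.11 and 12.99, 13.17 and 13.11, and 13.21 and 12.99. The treated arrays lay above the untreated ones of their line and time in all 4 comparisons, by 0.25, 0.34, 0.30 and 0.31 (SE 0.15), and none of these differences was called (adjusted p 0.145 to 0.657). Their 95% intervals had upper ends from 0.58 to 0.67. The separation at 24 h depended on the scaling, since with arrays scaled to their 75th percentile treated and untreated arrays overlapped in both lines and LP-1-eGFP cells differed by 0.12 and LP-1-cIAP2-eGFP cells by 0.07. The latter difference was 0.20 in the main scaling without the array of low signal. KEAP1 was called in LP-1-cIAP2-eGFP cells at 24 h when replicate 2 of the treated cells was left out, which leaves the array of low signal as the lone treated one (0.42, adjusted p = 0.0448), and in LP-1-eGFP cells at 24 h when only probes above background on all arrays were tested (0.34, adjusted p = 0.0424). The window of KEAP1 is shown beside that of MAFF because it holds 2 matches to the same core, at positions -54 (same strand) and -31 (opposite strand) of the start, in a gene for which no response was called. It lies at chr19:10502722-10503021 on the minus strand of GRCh38.p14, and both matches are in capitals.
KEAP1: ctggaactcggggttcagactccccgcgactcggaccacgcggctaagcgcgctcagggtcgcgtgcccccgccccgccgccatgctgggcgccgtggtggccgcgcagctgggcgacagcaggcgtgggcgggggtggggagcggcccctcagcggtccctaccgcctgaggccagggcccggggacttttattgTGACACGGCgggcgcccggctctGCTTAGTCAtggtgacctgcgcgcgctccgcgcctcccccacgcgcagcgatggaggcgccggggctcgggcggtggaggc

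BACH1, the repressor, rose in both lines at 24 h, and its calls at 6 h were less secure. Its brighter probe measured 10.67 and 10.62 in untreated LP-1-eGFP cells at 6 h and 11.03 and 10.54 at 24 h, and 11.99 and 11.92 and then 12.30 and 11.91 with bortezomib. In LP-1-cIAP2-eGFP cells the untreated values were 10.96 and 10.85 at 6 h and 11.10 and 10.66 at 24 h, and the treated ones 12.12 and 11.97 and then 12.76 and 12.76. All 8 treated arrays lay above all 8 untreated ones. The increases were 2.48-fold (log2 1.31 ± 0.21, SE, adjusted p = 0.0163) and 2.21-fold (1.14 ± 0.21, adjusted p = 0.0394) at 6 h in LP-1-eGFP and LP-1-cIAP2-eGFP cells, and 2.50-fold (1.32 ± 0.21, adjusted p = 0.00175) and 3.68-fold (1.88 ± 0.21, adjusted p = 0.000187, and 1.88 again without the array of low signal) at 24 h. The 6 h call in LP-1-cIAP2-eGFP cells was lost with slide as a block (1.03, adjusted p = 0.104), with normexp background correction (1.08, adjusted p = 0.0691), without a filter on dim probes (1.14, adjusted p = 0.0988), and without any 1 of the 4 LP-1-eGFP arrays of 6 h, which enter the spread alone (adjusted p 0.0831 to 0.0843). Within slides the responses were 1.28 and 1.12 in LP-1-eGFP cells and 1.09 and 1.66 in LP-1-cIAP2-eGFP cells. The dimmer probe, which matches a non-coding transcript of the gene, gave 1.49, 1.14, 1.94 and 1.66 (LP-1-eGFP and LP-1-cIAP2-eGFP at 6 h, then at 24 h), and of these the second was not called (adjusted p = 0.157).

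**Figure D3:**
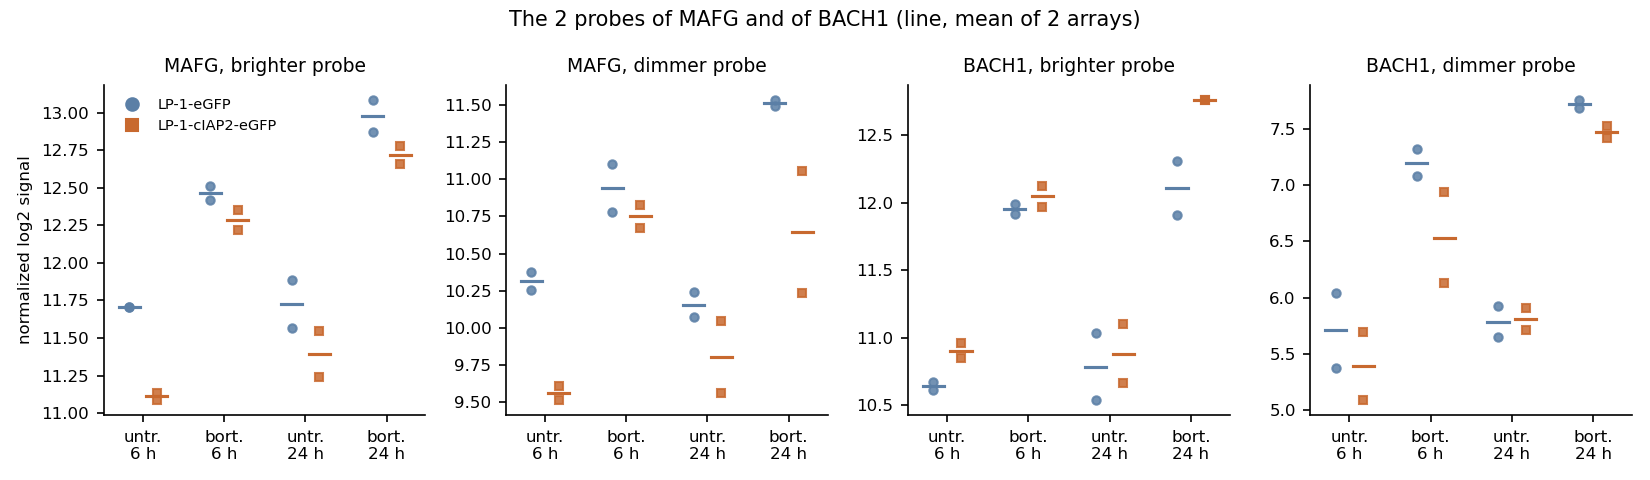
The normalized log2 signals of both probes of MAFG and of BACH1 are plotted by condition, with circles for LP-1-eGFP, squares for LP-1-cIAP2-eGFP and lines for the mean of 2 arrays. Both probes of each gene moved upwards with bortezomib, and both MAFG probes had lower means in LP-1-cIAP2-eGFP cells in all 4 conditions.

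The response was further tested for a change between 6 h and 24 h. MAFF alone of the 7 genes differed, its response being larger at 24 h by 1.44 ± 0.12 (SE) on the log2 scale averaged over the lines (adjusted p = 0.000131, and 1.47 without the array of low signal), where 6.16% of all probes differed upwards and 8.78% downwards. NFE2L1, BACH1 and MAFG had differences of 0.44, 0.37 and 0.32 with adjusted p of 0.335, 0.300 and 0.245. When untreated replicate 1 of LP-1-eGFP cells at 24 h was left out, NFE2L1 was called as well (0.69, adjusted p = 0.0194).

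No difference in the response between the lines was called for any of the 7 genes, at 6 h or at 24 h (limma). At an unadjusted p under 0.05 the count was 0 at 6 h and 1 at 24 h, which was MAFF. Few probes at all were called in these tests, 0% higher and 0.00297% lower at 6 h, and 0.0474% higher and 0.0237% lower at 24 h. At 24 h the response of MAFF was larger in LP-1-cIAP2-eGFP cells by 0.50 (95% interval 0.12 to 0.88, adjusted p = 0.522), and this was 0.55 without the array of low signal. For NFE2L1 the difference was 0.69 with an interval from -0.16 to 1.53, and for BACH1 0.56 with one from -0.11 to 1.23, so that differences in either direction were within the error. They were 0.59 and 0.56 without the array of low signal. Both rested on single arrays, that of NFE2L1 being 0.19 without untreated LP-1-eGFP replicate 1 and 1.18 without replicate 2, and that of BACH1 0.31 and 0.81. With normexp background correction the NFE2L1 difference was 0.07, and with the mean over both probes the BACH1 difference was 0.14. At 6 h the differences lay between -0.39 for NFE2L1 and 0.50 for DDI2.

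Between the lines MAFG alone was called. Averaged over the 4 conditions its brighter probe was lower in LP-1-cIAP2-eGFP cells by 0.34 on the log2 scale (difference -0.34 ± 0.08, SE, adjusted p = 0.0186, and -0.36 without the array of low signal), and its dimmer probe had a difference of -0.54 (adjusted p = 0.0189). It was the only call among the 7 genes (0 higher, 1 lower), where 6.26% of all probes were higher and 9.84% lower. This count was near the background share. Without a filter on dim probes the call was lost (limma, -0.34, adjusted p = 0.0542). The brighter probe had lower values in LP-1-cIAP2-eGFP cells with no overlap between lines in any condition, by -0.59 and -0.33 in untreated cells at 6 h and 24 h, and by -0.18 and -0.26 with bortezomib. Where the lines could be compared within a slide the differences were -0.57 and -0.62 (untreated, 6 h, slides 1 and 2), -0.49 (untreated, 24 h) and -0.37 (bortezomib, 24 h). The call was lost without replicate 1 of LP-1-cIAP2-eGFP (-0.32, adjusted p = 0.0523) or replicate 2 of LP-1-eGFP (-0.33, adjusted p = 0.0538) cells with bortezomib at 6 h. In untreated cells alone MAFG (-0.46, adjusted p = 0.0396) and MAFF (-0.33, adjusted p = 0.0439) were both lower in LP-1-cIAP2-eGFP cells, and 0 of the 7 genes were called there with arrays scaled to their 75th percentile. The study's methods name several selection rules, of which 1 was approximated here, an adjusted p under 0.001 for the line averaged over the 4 conditions (limma) with more than 2-fold between the untreated lines. None of the 7 genes met it, while 0.608% of probes met it upwards and 1.76% downwards.

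Relatives and partners of these factors were compared in the same way, as a list of 20 genes of which 19 were tested (NFE2 was not). In LP-1-eGFP cells 3 rose and 0 fell at 6 h and 8 rose and 2 fell at 24 h. In LP-1-cIAP2-eGFP cells 3 rose and 0 fell at 6 h and 8 rose and 3 fell at 24 h. Of all probes 9.81% rose and 11.2% fell in LP-1-eGFP cells at 24 h, and 11.1% and 17.5% in LP-1-cIAP2-eGFP cells, so that the lower counts were near the background share. SQSTM1, the autophagy receptor p62, which binds KEAP1 and is itself an NFE2L2 target, rose by 1.89 and 1.78 at 6 h and by 2.52 and 3.21 at 24 h in the 2 lines. USP15, a deubiquitinase known to act on KEAP1, rose at 24 h by 1.36 and 1.38. Among these relatives, the targets and the proteasome genes described next, 0 differences in the response between the lines were called at 6 h or at 24 h (limma). At an unadjusted p under 0.05 the counts were 0 at 6 h, and at 24 h 3 relatives had the larger and 2 the smaller response in LP-1-cIAP2-eGFP cells, as 0 and 2 targets did and 0 and 0 proteasome genes.

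Of 25 known targets of NFE2L2 23 were tested (AKR1B10 and AKR1C1 were not), and 5 and 4 rose and 0 fell at 6 h in LP-1-eGFP and LP-1-cIAP2-eGFP cells, and 11 and 8 rose and 2 and 2 fell at 24 h. The share of all probes was 1.26% and 0.762% higher at 6 h, and at 24 h 9.81% and 11.1% higher and 11.2% and 17.5% lower, so that the count of lower targets was not above the background. At 6 h 9 and 7 targets rose without the array of low signal, where the probes called higher also grew, from 426 to 1011 of 33731 in LP-1-eGFP and from 257 to 723 of 33716 in LP-1-cIAP2-eGFP cells. SLC7A11, the cystine transporter, rose by 4.0 and 4.46 at 6 h and by 2.40 and 3.12 at 24 h. Its 24 h values had an SE of 0.74 in each line (limma, adjusted p = 0.0444 and 0.0110). OSGIN1, an oxidative stress response gene, rose by 2.35 and 2.00 and then by 2.90 and 2.03, and BLVRB, a biliverdin reductase, rose at 24 h by 2.30 and 2.26. When arrays were scaled to their 75th percentile 7 of the 23 rose in LP-1-eGFP cells at 24 h and 1 fell. All 31 listed genes for subunits of the 20S and 19S proteasome, known targets of NFE2L1, were tested. At 6 h 9 and 6 of them rose, and at 24 h 28 and 24 did, with 0 lower in each case (0 also at an unadjusted p under 0.05), beside the same shares of all probes. At 24 h PSMC4 rose by 2.05 and 1.76, PSMD12 by 1.88 and 1.86, and PSMC6 by 1.68 and 1.59, all 3 encoding parts of the 19S regulator. The median response of the 31 genes at 24 h was 0.97 and 0.76. The proteasome counts depended on the scaling, as 3 and 3 of 31 rose at 6 h and 16 and 11 at 24 h with arrays scaled to their 75th percentile. In that scaling 321 and 178 of all probes were called higher at 6 h and 2641 and 3603 at 24 h, compared to 426 and 257 and then 3310 and 3736 in the main one. Without the array of low signal they were 17 and 15 at 6 h and 30 and 28 at 24 h, beside the larger number of probes called at 6 h given above, and at 24 h beside 4883 probes higher in LP-1-eGFP cells and 4221 in LP-1-cIAP2-eGFP cells.

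**Figure D4:**
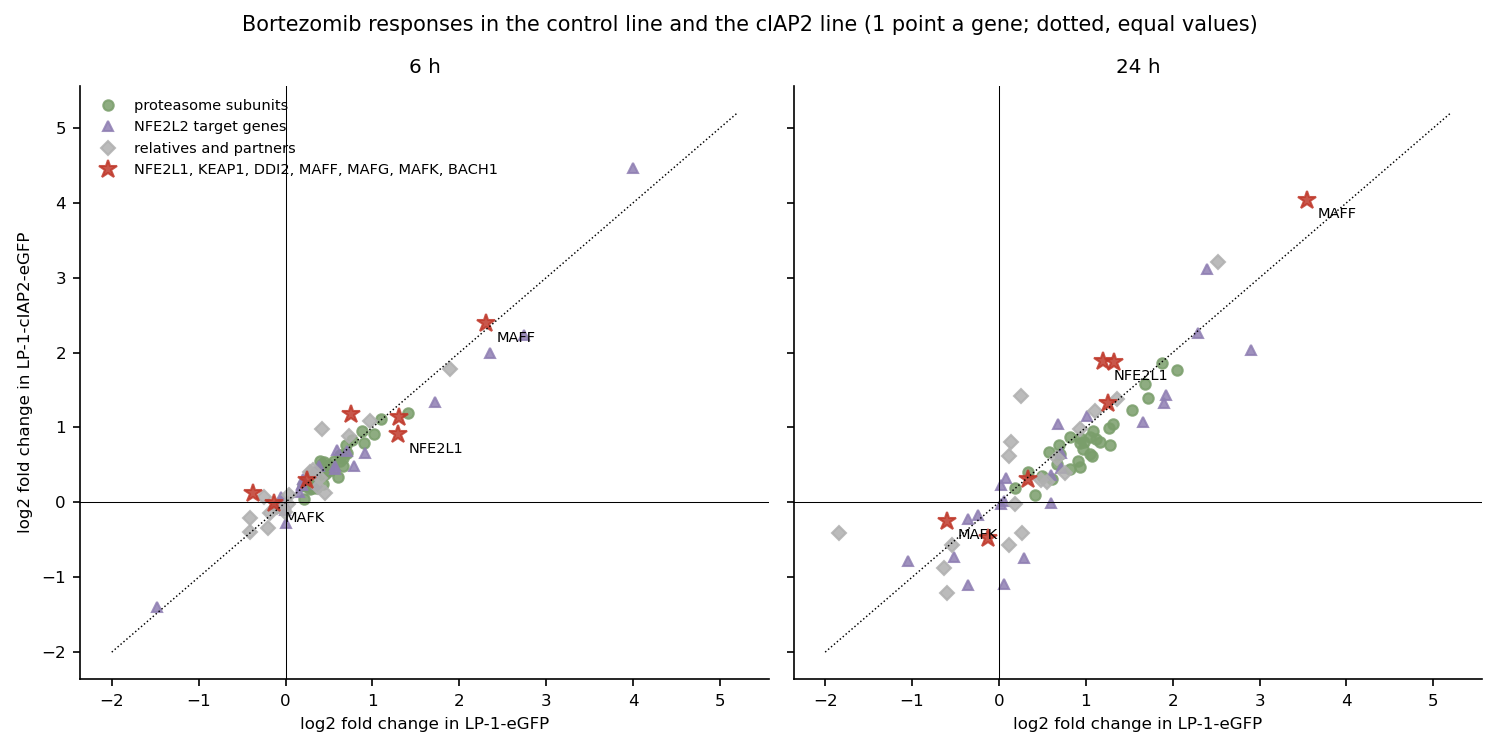
Each point is a gene, placed by its log2 fold change with bortezomib in LP-1-eGFP (horizontal) and LP-1-cIAP2-eGFP cells (vertical) at 6 h and 24 h, with stars for the 7 tested regulators, circles for proteasome subunits, triangles for NFE2L2 target genes and diamonds for 18 of the 19 tested relatives and partners. MAFF lies at 2.31 and 2.39 at 6 h and at 3.54 and 4.04 at 24 h.

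The genes most like each regulator over the 16 arrays were taken by Pearson's r among 9685 genes above background on all arrays. These values are a description, since the arrays share treatment and time, and 100 genes exceeded or reached an r of 0.922 with NFE2L1. NFE2L1 was most like CEBPB (r = 0.983), SUCO (0.978) and TSC22D3 (0.974). MAFF was most like DOK1 (0.992), CYB5R1 (0.990) and SDR42E1 (0.990), and MAFG like RPL23AP32 (0.976) and DOLPP1 (0.973). BACH1 was most like DNAJB9 (0.987), ATP2C1 (0.982) and ZNF235 (0.977). The genes without a called response had looser neighbours, with SRP68 (0.924), RGPD6 (0.921) and EIF5 (0.917) for KEAP1, SBF1P1 (0.901), SGMS1 (0.890) and CRKL (0.883) for MAFK, and NACC1 (0.863), MAFK (0.809) and PCDHGA8 (0.790) for the dim DDI2.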

How the data were processed

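RNA of 16 LP-1 samples (8 conditions with 2 biological replicates) was measured on Agilent SurePrint G3 arrays. The deposited scanner files give a background-subtracted intensity per spot, made by Feature Extraction 10.7.3.1 and not normalized between arrays. A second deposited table holds the authors' log2 values, which were quantile normalized in GeneSpring per the methods, and served as an alternative. Outlier spots were left out, spots were averaged per probe on the log2 scale, and arrays were quantile normalized with limma 3.58.1 in R 4.3.3. Symbols were matched through RefSeq accessions to an annotation of GRCh38.p14 (28174 of 50599 gene probes). A gene is reported by the probe with the highest mean signal, its other probe beside it. limma fitted 1 mean per condition over all 16 arrays, so that conditions share 1 estimate of the spread (8 residual and 1.61 prior degrees of freedom), and the fit was tested on simulated data. Replicates were grouped by their labels, and the fit had no replicate block. From each list the 3 genes with the largest 24 h response among those called in both lines are named, and the 5 heat shock genes in full; some genes that these rules name are not reported here. The genes and lists were chosen with earlier results of these data known. Slide numbers come from the file headers. Promoter sequences are those of RefSeq. Alternatives were scaling to the 75th percentile, normexp with an offset of 50 (on median signals), the authors' values, 2 other filters, replicate or slide blocks, array weights, probe means, a 2-fold minimum, and leaving out each array.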

Additional observations from a re-analysis of the deposited data

Results flagged for a closer look

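The response at 24 h differed from that at 6 h, by the test of the difference itself (limma, averaged over the lines), for 1 regulator and 7 of the other genes named. MAFF had a response larger by 1.44 on the log2 scale (adjusted p = 0.000131). The difference was 1.63 for BLVRB (adjusted p = 0.000187), 1.47 for HSPA1B (adjusted p = 0.0255), 1.08 for USP15 (adjusted p = 0.0446) and 1.04 for SQSTM1 (adjusted p = 0.0128). Among the proteasome genes it was 1.11 for PSMC4 (adjusted p = 0.00113), 0.57 for PSMD12 (adjusted p = 0.0165) and 0.53 for PSMC6 (adjusted p = 0.0392). The 11 of 31 proteasome genes called in this test became 0 when arrays were scaled to their 75th percentile, beside 2078 and 1432 of 33715 probes called upwards. HSPA1B shares nearly all of its sequence with HSPA1A, so that its probe may read both.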

How the results depend on the processing

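Of 552 values of single genes under the alternatives that kept all arrays, 532 kept their side of the threshold, 8 lost and 12 gained a call, and none that was called changed sign. Leaving out 1 array gave 855 of 896, with 31 lost and 10 gained. Uncalled values changed sign in 47 of 1010 cases, which count as kept if they stayed uncalled. The count of regulators that differed between the lines, 1 in the main fit, was 2 with the authors' values, 0 without a filter on dim probes, 3 with only probes above background on all arrays, 2 with the replicate block and 0 with a 2-fold minimum. Leaving out 1 array gave 0 to 2 for it, 1 to 4 for the 6 h response in either line and 1 to 2 for the change of the response with time. The labels do not say that same-numbered replicates belong together, and the numbers were not taken to pair the samples. The deviations of same-numbered replicates from the condition means correlated between -0.12 and 0.49 (median 0.28, above 0.1 in 22 of 28 pairs of conditions). Most of these correlations were thus positive, and the main fit holds no replicate effect. The replicate block also added MAFG in LP-1-eGFP cells at 6 h (adjusted p = 0.0373) MAFK there at 24 h (-0.59, adjusted p = 0.0400) and BACH1 between the lines (0.28, adjusted p = 0.0453, where its dimmer probe had -0.30 in the main fit and the mean of both probes -0.01), and removed no call. Over all probes the number called moved more. With all arrays kept it ranged from 235 to 5491 (659 in the main fit) in LP-1-eGFP and from 133 to 1625 (366) in LP-1-cIAP2-eGFP cells at 6 h, from 4043 to 7917 (7080) and from 3004 to 10558 (9631) at 24 h, from 2616 to 5970 (5038) for the change with time and from 1466 to 6135 (5428) between the lines. For the difference of the 24 h response between the lines it ranged from 0 to 80 (24, 66.7% of them higher, and 77.8% of 9 with the 75th percentile), and was 92 without the array of low signal and 9338 without its replicate, which leaves that array alone. For the 6 h difference it ranged from 0 to 13 (1). The cause of these changes was not tested. Signal limited NFE2L2 and DDI2, and 2 replicates a condition limit all values.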
